A study of Drosophila melanogaster with 44 samples.

Results

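The comparison described here is the knockdown (KD) of every Mod(mdg4) variant at once against a control KD in cultured ovarian somatic cells (OSCs) of Drosophila melanogaster. Gene expression was measured by mRNA-seq in 2 libraries of cells treated with RNAi against EGFP, labelled EGFP-KD, and in 2 libraries treated with RNAi against Mod(mdg4)-All, here EGFP KD and All KD. These are 4 of the 12 libraries of the series with expression tables, and 8126 of the 17807 genes in the tables had more than 1 CPM (counts scaled to a common library size) in at least 2 of the 4 libraries and were tested. The labels give no genotype for the cells, all libraries come from the same cell line, and nothing says that the replicates came from separate cultures or transfections, so p-values measure the spread between these libraries, which may be technical. Libraries of another condition, RNAi against variant N alone (N KD, 2 libraries), are used only for values set beside those of the All KD. Read pairs counted on genes were between 13728168 and 16902321 in the 4 libraries.

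Mod(mdg4) proteins share an amino-terminal part with a BTB domain, which lets proteins pair, and differ in their carboxy-terminal parts, most of which hold a zinc finger of the FLYWCH type. The common exons are joined to variant exons, some of which lie on the opposite strand, by trans-splicing. A variant of the protein acts together with Su(Hw) and CP190 at the gypsy insulator, a sequence that can block an enhancer from acting on a promoter. OSCs resemble the follicle cells that surround the germline, and silence transposons with Piwi and its small RNAs.

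The siRNA that the study lists for all variants was taken to be that of the All KD, although no label names it. It is shown because its full site marks the transcripts it was made to target. The sense strand is written with the bases that match the mRNA in capitals, and the antisense strand 5′ to 3′ with its seed, bases 2 to 8, in capitals.
sense strand: GCCACCAUUGUACAACAGCtt
antisense strand: gCUGUUGUacaaugguggc
The 19 bases occurred at a single place in the reference genome, 3R from 21375687 to 21375705 (dm6), on the minus strand in exon 4 of mod(mdg4), and in 22 of the 22 annotated transcripts of that gene. No precursor gene of a variant held the site. Among 8043 tested genes with a transcript sequence and outside the locus, the longest run shared with the siRNA was 13 bases, and it was at most 11 bases in the genes that fell in the All KD. The site complementary to the seed was present in any annotated transcript of 24 of 60 lowered genes (40.0%), of 7 of 21 raised genes (33.3%), and of 26.8% of all 8043. The longest annotated transcript of a gene had a median of 3067 bases in the lowered genes and 2071 bases in all 8043. The part of seed matches and of transcript length in the result was not tested.

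The targeted gene was low in both All KD libraries. The gene mod(mdg4) (FBgn0002781; 3R, 21350846 to 21377401, minus strand) was at 617 and 589 CPM in EGFP KD and at 107 and 109 CPM in All KD, while the N KD libraries had 566 and 546 CPM. By edgeR's quasi-likelihood test, the log2 fold change between All KD and EGFP KD was -2.47 (SE 0.09, adjusted p = 0.00037), so that 18.0% of the control level was left. It was called in each of the 12 alternative settings, with a log2 fold change between -2.51 and -2.44. The poly(A)+ counts do not say how much protein was left.

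The annotation lists 23 precursor genes named pre-mod(mdg4), which carry variant exons and share intervals with each other, and 20 of them passed the filter. Of these 20, 4 fell, 1 rose and 15 did not pass the test, and 10 had a log2 fold change above 0. Pre-mod(mdg4)-U was at 7.13 and 6.13 CPM in EGFP KD and at 1.20 and 1.70 CPM in All KD, a log2 fold change of -2.17 (adjusted p = 0.030, SE 0.29). Pre-mod(mdg4)-V, which spans the same interval, fell by 1.45 on the log2 scale (SE 0.16). Pre-mod(mdg4)-T and pre-mod(mdg4)-Z had identical counts in every library, 24.3 and 24.8 CPM in EGFP KD against 10.8 and 10.3 CPM in All KD, and stand for 1 measurement. The precursor of variant N was at 1.83 and 2.33 CPM in EGFP KD and at 1.81 and 3.54 CPM in All KD, a log2 fold change of 0.38 (adjusted p = 0.75, SE 0.40). The 1 precursor called as raised, pre-mod(mdg4)-Y, rested on 3 counts in EGFP KD and 102 in All KD, a ratio of 40.4 (exact 95% interval from 13.5 to 199, counting error only). Exons of mod(mdg4) itself overlap those of several precursors, variant N among them, on the same strand. They overlap those of U, V and W on the opposite strand. Reads in these overlapping genes, mod(mdg4) included, were divided between them by RSEM. The values of single precursors depend on that division and are not levels of separate RNAs.

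**Figure D1:**
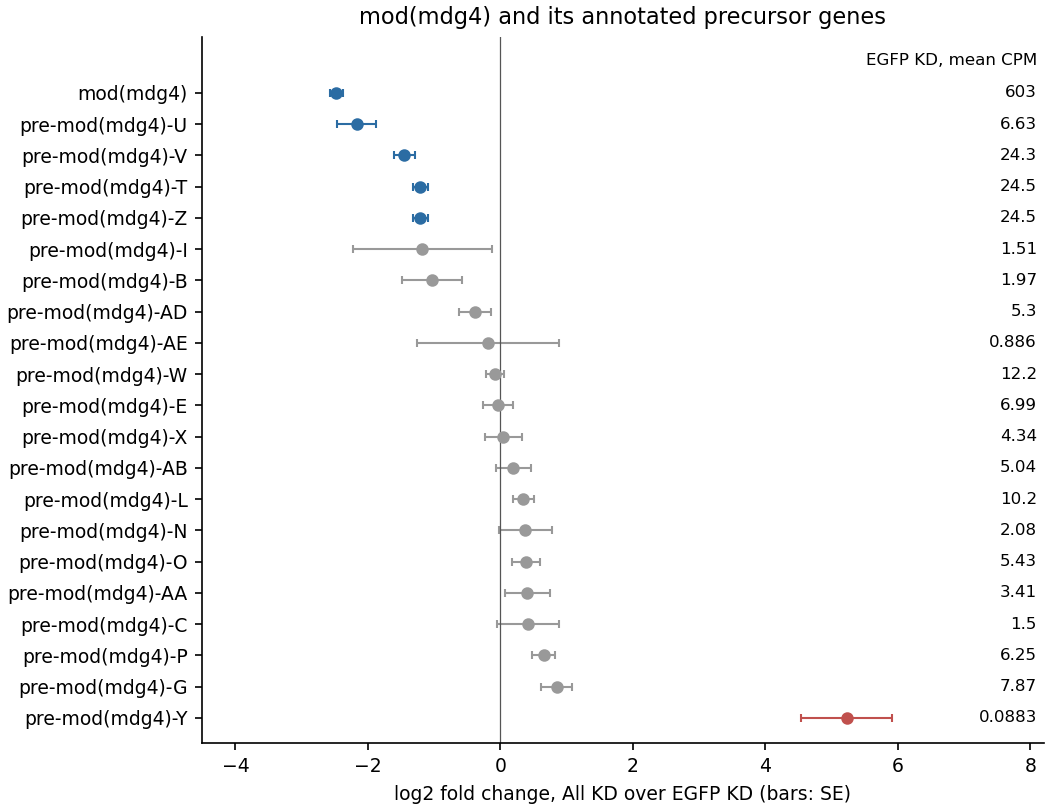
Log2 fold change of All KD over EGFP KD for mod(mdg4) and the 20 tested precursor genes, with bars for the SE and the mean CPM of the 2 EGFP KD libraries at the right. Blue points fell, the red point rose, and grey points did not pass the test. The gene mod(mdg4) lies at -2.47, below every precursor, and most precursors lie near 0.

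Of the genes that passed the test, most were lower in the All KD, a balance that turned without All KD replicate 2, where 187 were raised and 111 lowered. Of the 8126 tested genes, 89 (1.1%) had a Benjamini-Hochberg adjusted p under 0.05 and are called DEGs, 65 lower (0.8%) and 24 higher (0.295%) in the All KD. DEGs changed 2-fold or more numbered 55 (0.677%), of which 45 were lower and 10 higher. A difference of 2-fold or more, called or not, was found in 267 genes (3.29%), and 96.7% of genes differed by less than 2-fold. Log2 fold changes had a median of 0.00 and quartiles of -0.12 and 0.13. The median log2 fold change was -1.24 in lowered and 0.92 in raised DEGs, and the smallest in size was 0.59. The CPM of the 2 groups did not overlap in any of the 89 DEGs, which was also the case in 44.8% of tested genes. Before adjustment 1048 genes (12.9%) had a p under 0.05, of which 552 were lower and 496 higher.

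The number of calls depended on each single library. There were 37 DEGs without EGFP KD replicate 1, 26 without EGFP KD replicate 2, 307 without All KD replicate 1 and 298 without All KD replicate 2, where the lone library of a group is assumed to vary like the other group. Of the 89 DEGs, 29 were called without EGFP KD replicate 1 and 24 without replicate 2, against 89 and 88 without each All KD library. All 89 had the same sign in all 12 alternatives. The genes were picked from these same libraries and their groups did not overlap. Their sign could therefore hardly turn, and keeping it is no test of direction. A group of 19 DEGs was called in all 12, namely AgmNAT, CG17224, CG7194, 5-HT1B, ea, CG3457, 5-HT2A, dysc, mod(mdg4), otk2, Jheh2, CG17264, Treh, CG6310, Sps2 and CG34347 among the lowered, and Col4a1, CG6765 and pre-rRNA:CR45847 among the raised. Every other DEG lost its call in at least 1 alternative. Of these, 42 lost their call only in the fits without EGFP KD replicate 1 and without EGFP KD replicate 2.

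**Figure D2:**
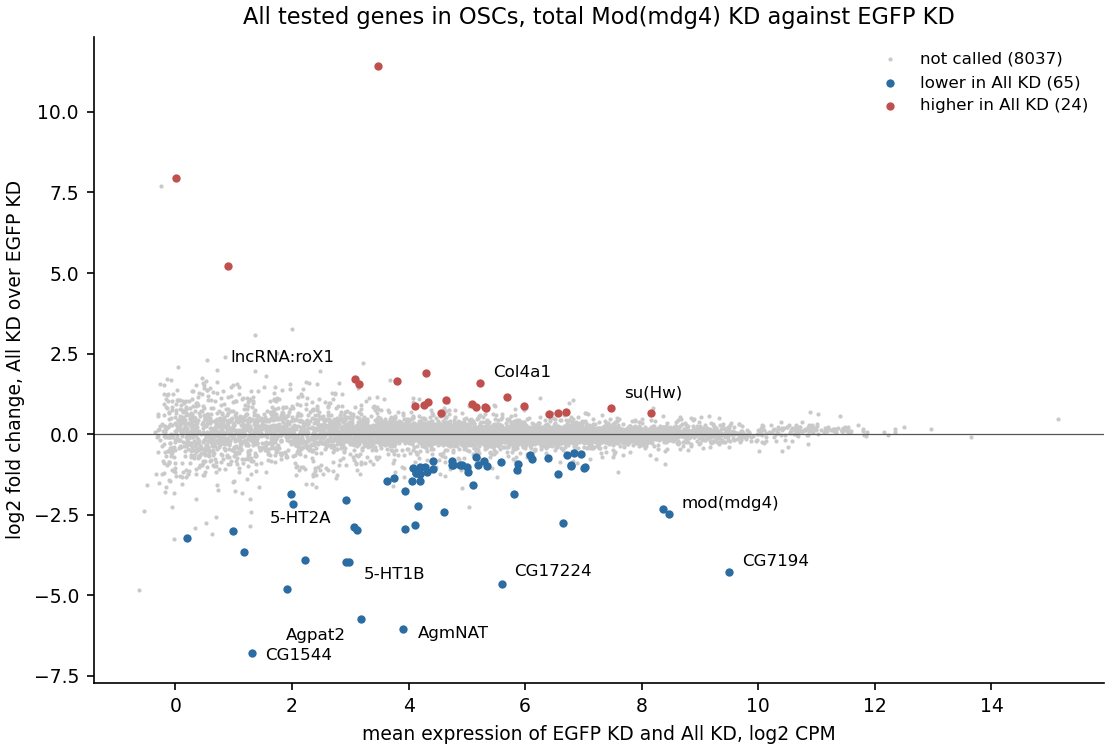
Log2 fold change of All KD over EGFP KD against the mean expression of both groups (log2 CPM) for the 8126 tested genes. The 65 blue points reach down to CG1544, with CG7194 the farthest below 0 among genes of high expression, and the 3 red points above 5 are genes with 3 or fewer counts in EGFP KD, whose fitted value is no measure of size.

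Markers of follicle cells were present in every library. All 10 follicle cell markers on the list were tested, with a summed level between 4009 and 4502 CPM in EGFP KD and between 4155 and 4465 CPM in All KD. Traffic jam (tj), the transcription factor that marks gonadal somatic cells, was at 396 and 363 CPM in EGFP KD and at 368 and 396 CPM in All KD, and piwi, whose product binds piRNAs, was at 1365 and 1128 CPM against 1293 and 1345 CPM. Of the 10, only Pvr was a DEG. The haemocyte markers eater, NimC1, He and Hml had at most 0.681 CPM in these libraries and were not tested, while the haemocyte list summed to between 101 and 112 CPM in EGFP KD and between 78.9 and 83.0 CPM in All KD through srp and Ppn. Germline markers summed to between 191 and 208 CPM in EGFP KD and between 217 and 235 CPM in All KD, of which krimp made up between 168 and 206 CPM and bam at most 13.7 CPM, and the others stayed at or under 5.72 CPM. Muscle markers summed to 145 and 185 CPM in EGFP KD and to 134 and 90.7 CPM in All KD, mainly from Act57B, and the part of these markers in the results below was not tested. None of these other markers was a DEG, although 1 germline, 1 haemocyte and 1 muscle marker had an unadjusted p under 0.05.

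The 4 most lowered DEGs were near the limit of detection in the All KD, and their mean levels in EGFP KD were below the median of all tested genes, 42.6 CPM. CG1544 had 164 counts in the EGFP KD libraries and 1 in the All KD libraries, a ratio of 138 (exact 95% interval from 24.4 to 5480, counting error only). AgmNAT, an agmatine N-acetyltransferase (FBgn0029813; X, 5814864 to 5815820), was at 25.1 and 33.9 CPM in EGFP KD and at 0.602 and 0.272 CPM in All KD. It fell 67.0-fold, a log2 fold change of -6.07 (adjusted p = 0.0013, SE 0.32), and the groups were far apart. Agpat2, an acyltransferase of glycerolipid synthesis, was at 13.1 and 22.4 CPM in EGFP KD and at 0.602 and 0.0681 CPM in All KD, a log2 fold change of -5.74 (adjusted p = 0.012, SE 0.58). CG10184 was at 4.71 and 9.94 CPM against 0.376 and 0.136 CPM, a log2 fold change of -4.81 (SE 0.61). CG1544 lost its call without EGFP KD replicate 2, Agpat2 and CG10184 lost theirs with limma-voom and without EGFP KD replicate 2, and the All KD values of Agpat2 and CG10184 rest on 8 and 1 counts and on 5 and 2 counts.

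Genes with high expression in the control also fell. CG7194 (FBgn0035868; 3L, 8302364 to 8304059), which the annotation does not characterize, was at 1335 and 1431 CPM in EGFP KD and at 88.5 and 52.9 CPM in All KD, a 19.4-fold fall (log2 fold change -4.28, SE 0.25, adjusted p = 0.0018). It had the largest difference in mean CPM of all DEGs. The gene dysc, which encodes the PDZ domain protein Dyschronic, was at 185 and 166 CPM in EGFP KD and at 31.5 and 20.1 CPM in All KD, a log2 fold change of -2.76 (adjusted p = 0.0058, SE 0.21). Jheh2, a juvenile hormone epoxide hydrolase, was at 400 and 701 CPM in EGFP KD and at 124 and 93.9 CPM in All KD, a log2 fold change of -2.33 (adjusted p = 0.020, SE 0.28). In all of these the 2 All KD libraries lay well below both control libraries, although the control libraries of Jheh2 differed from each other more than its All KD libraries did. CG34347 was at 188 and 160 CPM against 81.0 and 84.3 CPM, a smaller fall of 1.06 on the log2 scale (SE 0.10).

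All 3 tested serotonin receptor genes fell, where 0.8% of all tested genes did, and the other 2 of the 5 annotated, 5-HT2B and 5-HT7, had at most 0.0613 CPM and were not tested. 5-HT1B, a receptor that acts through inhibitory G proteins, was at 15.4 and 14.2 CPM in EGFP KD and at 0.978 and 0.885 CPM in All KD, a log2 fold change of -3.98 (adjusted p = 0.0016, SE 0.22). 5-HT2A (FBgn0087012; 3R, 4612870 to 4633304), which acts through Gq, was at 13.4 and 15.9 CPM in EGFP KD and at 1.73 and 2.18 CPM in All KD, a log2 fold change of -2.89 (adjusted p = 0.0059, SE 0.22). 5-HT1A, a paralog of 5-HT1B, was at 59.0 and 49.6 CPM in EGFP KD and at 24.7 and 29.5 CPM in All KD, a log2 fold change of -0.99 (adjusted p = 0.031, SE 0.14), and its call was lost without EGFP KD replicate 1 and without EGFP KD replicate 2. TPM gives the share of each gene among the transcripts of a library, scaled for gene length. On this scale 5-HT1A had the highest level of the 3 in EGFP KD, 13.7 and 11.5 TPM, against 4.50 and 4.16 TPM for 5-HT1B and 4.39 and 5.30 TPM for 5-HT2A. In All KD it was at 5.20 and 6.64 TPM, while 5-HT1B was at 0.26 and 0.25 TPM and 5-HT2A at 0.51 and 0.73 TPM. The list was chosen with the fall of 5-HT2A in N KD known, so its count is no independent evidence of direction.

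CCKLR-17D3, a receptor related to those for cholecystokinin, was at 12.4 and 5.15 CPM in EGFP KD and at 0.752 and 0.408 CPM in All KD, a log2 fold change of -3.91 (adjusted p = 0.041, SE 0.58). The FGF receptor gene htl was at 20.4 and 18.5 CPM against 6.62 and 8.37 CPM, a log2 fold change of -1.36 (adjusted p = 0.020, SE 0.16). Pvr, the receptor for PDGF- and VEGF-like ligands, was at 27.6 and 22.0 CPM against 11.4 and 12.6 CPM, a log2 fold change of -1.03 (adjusted p = 0.041, SE 0.15). Downstream of receptor tyrosine kinases, the ETS transcription factor gene pnt was at 35.5 and 35.4 CPM in EGFP KD and at 17.5 and 18.6 CPM in All KD, a log2 fold change of -0.97 (adjusted p = 0.012, SE 0.10). Mkp3, a phosphatase that acts on MAP kinase, fell by 1.03 on the log2 scale (SE 0.14) and was picked after its value was seen. Of the 18 tested genes of the EGFR and FGF pathways, htl and pnt were called lowered and none raised, where 0.8% of all tested genes fell. The median log2 fold change was -0.19 against 0.00 over all tested genes, with 13 members below 0 and 5 above. The member ths was at 37.7 and 31.3 CPM in EGFP KD and at 50.3 and 54.6 CPM in All KD. Its log2 fold change of 0.61 did not pass the test (adjusted p = 0.097). The calls of htl, Pvr and pnt were lost without EGFP KD replicate 1 and without EGFP KD replicate 2, and that of CCKLR-17D3 without replicate 1. With limma-voom the calls of Pvr and CCKLR-17D3 were lost too, and with the newer edgeR algorithm that of CCKLR-17D3.

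Some other lowered DEGs are given with their known roles, picked after their values were seen and standing for no shared theme. Treh, which splits trehalose, fell by 1.87 on the log2 scale (SE 0.18), Sps2, which makes selenophosphate, by 1.17 (SE 0.10), slgA, a proline dehydrogenase, by 0.99 (SE 0.10), and Pfas, of purine synthesis, by 0.95 (SE 0.11). The forkhead transcription factor gene foxo, an effector of insulin signalling, was at 39.3 and 38.6 CPM in EGFP KD and at 20.2 and 19.5 CPM in All KD, a log2 fold change of -0.97 (SE 0.09). The gene mew, which encodes the integrin subunit αPS1, was at 39.3 and 46.6 CPM in EGFP KD and at 20.7 and 21.3 CPM in All KD, a log2 fold change of -1.02 (adjusted p = 0.019, SE 0.12). Shrm, the fly Shroom, which binds actin, fell by 1.24 (SE 0.16), and the cadherin gene Cad86C by 1.17 (SE 0.12). The receptor-like pseudokinase gene otk2 was at 39.0 and 43.2 CPM in EGFP KD and at 7.83 and 7.42 CPM in All KD, a log2 fold change of -2.42 (adjusted p = 0.0010, SE 0.12). Cp15, a gene for an eggshell (chorion) protein, was at 1.83 and 2.33 CPM against 0.226 and 0.204 CPM (log2 fold change -3.22, SE 0.47), and its All KD level of 3 counts a library is at the limit of detection.

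**Figure D3:**
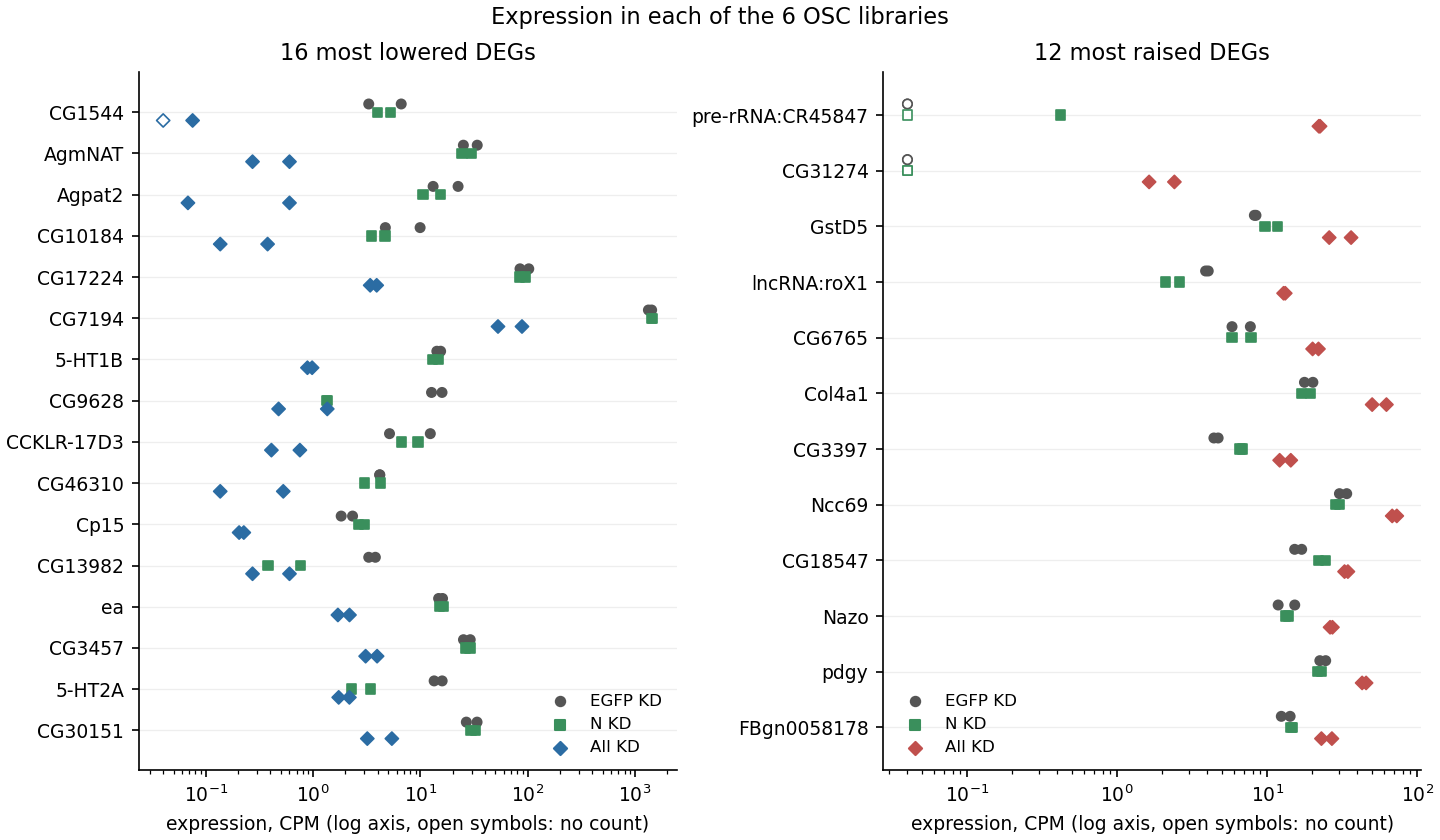
Expression in CPM (log axis) of the 16 most lowered and the 12 most raised DEGs outside the mod(mdg4) locus in each EGFP KD, N KD and All KD library, with 1 symbol per library and open symbols for libraries with no count. All KD symbols are separate from EGFP KD symbols in every gene, and in CG9628, CG13982 and 5-HT2A the N KD symbols lie near those of the All KD.

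Raised DEGs were fewer, and 10 of them changed 2-fold or more. Col4a1 (FBgn0000299; 2L, 5029609 to 5037279), a chain of the collagen IV of basement membranes, was at 17.7 and 20.2 CPM in EGFP KD and at 50.1 and 62.4 CPM in All KD, a log2 fold change of 1.58 (adjusted p = 0.0099, SE 0.14). The gene vkg for the partner chain, which lies beside Col4a1 in the opposite orientation, was at 7.54 and 4.78 CPM against 15.7 and 23.4 CPM, a log2 fold change of 1.67 (SE 0.28) that did not pass the test (adjusted p = 0.060). GstD5, a glutathione S-transferase, was at 8.42 and 8.22 CPM in EGFP KD and at 36.3 and 25.9 CPM in All KD, a log2 fold change of 1.91 (adjusted p = 0.012, SE 0.19). CG6765 was at 5.83 and 7.73 CPM against 20.1 and 22.0 CPM (log2 fold change 1.64, SE 0.17), and shares exon sequence with Pus7 on the same strand. CG3397 and CG18547 rose by 1.54 (SE 0.19) and 1.07 (SE 0.11) on the log2 scale. Ncc69, a sodium, potassium and chloride cotransporter, was at 30.3 and 33.9 CPM in EGFP KD and at 68.2 and 73.2 CPM in All KD, a log2 fold change of 1.15 (adjusted p = 0.010, SE 0.10).

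The gene su(Hw), whose product binds the gypsy insulator, was among the raised DEGs. It was at 135 and 126 CPM in EGFP KD, at 213 and 240 CPM in All KD and at 124 and 125 CPM in N KD, a log2 fold change of 0.80 between All KD and EGFP KD (SE 0.10, adjusted p = 0.021). Both All KD libraries lay above all others, and the call was lost without EGFP KD replicate 1 and without EGFP KD replicate 2. Exons of su(Hw) overlap those of IFT54 on the opposite strand. The noncoding RNA roX1, which guides the dosage compensation complex to the male X chromosome, was at 3.89 and 4.05 CPM in EGFP KD and at 12.9 and 13.2 CPM in All KD, a log2 fold change of 1.72 (adjusted p = 0.012, SE 0.17). In N KD it was at 2.60 and 2.09 CPM, below the control libraries, and the difference between All KD and N KD was 2.47 (SE 0.20, adjusted p = 0.0069). Its counts were partly fractional and its exons overlap ec on the opposite strand, so some of its reads could belong to that gene.

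Cdk4, the partner kinase of cyclin D, was at 45.9 and 43.8 CPM in EGFP KD and at 78.0 and 86.2 CPM in All KD, a log2 fold change of 0.88 (adjusted p = 0.017, SE 0.10). The fusion factor gene comt was at 73.3 and 73.0 CPM against 118 and 113 CPM (log2 fold change 0.67, SE 0.08), CG10638 at 220 and 226 CPM against 355 and 338 CPM (0.64, SE 0.09), and CG42342 at 80.1 and 81.6 CPM against 129 and 128 CPM (0.67, SE 0.08). These are among the raised DEGs with the most added reads, and each rose by less than 2-fold. The gene pdgy, a fatty acyl-CoA synthetase, rose by 0.92 (SE 0.10), and Nazo, an antiviral gene, by 0.99 (SE 0.15). There were 2 raised DEGs with no count in EGFP KD. CG31274 had 56 counts in the All KD libraries, at least 22.2-fold higher against a floor of 3 counts over the group. Its exons overlap those of an antisense gene. The ribosomal RNA precursor copy pre-rRNA:CR45847 had 625 counts, at least 248-fold higher, but its copies share sequence: the 4 annotated copies summed to 121 and 94.3 CPM in EGFP KD, to 191 and 180 CPM in All KD and to 149 and 150 CPM in N KD, and the value of a single copy depends on how RSEM divided reads between them.

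Outside receptors, the lists of insulator, adhesion, cell cycle, piRNA and telomere cap genes held at most 2 DEGs each. Of all tested genes, 1.1% were called, 0.8% lowered and 0.295% raised. Any of these lists that held a DEG had a larger share called, which rests on so few genes that it is no measure of the list. Of 21 tested genes for insulator and architectural proteins, su(Hw) rose and none fell, with a median log2 fold change of 0.01. The gene shep, which antagonizes the gypsy insulator in the nervous system, was at 80.6 and 85.5 CPM against 115 and 111 CPM, a log2 fold change of 0.45 that did not pass the test (adjusted p = 0.079). Of 20 tested genes of basement membrane and adhesion, mew fell and Col4a1 rose, and of 23 cell cycle genes Cdk4 rose, with medians of -0.02 and -0.01. CycE was at 57.3 and 71.4 CPM against 36.6 and 43.7 CPM, a log2 fold change of -0.67 (adjusted p = 0.12). The 27 tested piRNA pathway genes held no DEG and had a median of 0.02, with 6 at an unadjusted p under 0.05 (12.9% of all tested genes were), and the 14 tested genes of the telomere cap held no DEG and had a median of 0.13, with 4 at an unadjusted p under 0.05. For the telomere cap protein gene ver the values were 18.3 and 19.8 CPM in EGFP KD and 32.4 and 26.7 CPM in All KD (log2 fold change 0.64, adjusted p = 0.11).

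The lists of stress and cell death genes held no DEG by edgeR. The heat shock gene Hsp67Ba, which is not on the list, was picked after its value was seen and overlaps an antisense gene, fell from 35.1 and 44.3 CPM in EGFP KD to 21.2 and 19.7 CPM in All KD, a log2 fold change of -0.95 (adjusted p = 0.039, SE 0.14), and lost its call with limma-voom and without EGFP KD replicate 2. The 19 tested stress and heat shock genes on the list had a median log2 fold change of 0.27, the highest of the lists, and 6 had an unadjusted p under 0.05, against 12.9% of all tested genes. Hsp68 was at 20.3 and 26.6 CPM against 40.2 and 44.7 CPM (log2 fold change 0.87, adjusted p = 0.061), and Hsp26 at 97.0 and 101 CPM against 147 and 135 CPM (0.52, adjusted p = 0.062). Among 16 tested cell death genes, 5 had an unadjusted p under 0.05. The pro-death gene hid was at 5.95 and 6.62 CPM against 12.3 and 11.4 CPM (log2 fold change 0.92, adjusted p = 0.081), and rpr at 0.294 and 0.491 CPM against 2.33 and 1.02 CPM (2.08, adjusted p = 0.23). The part of stress in the other results was not tested. No DEG was found among 16 trithorax group genes (0 at an unadjusted p under 0.05), 12 ecdysone response genes (0), 10 Notch pathway genes (0), 8 JAK-STAT genes (1), 8 neuronal genes (1), 7 of 27 innate immune genes that were tested (2) and 5 of 16 homeotic and segment polarity genes that were tested (0).

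**Figure D4:**
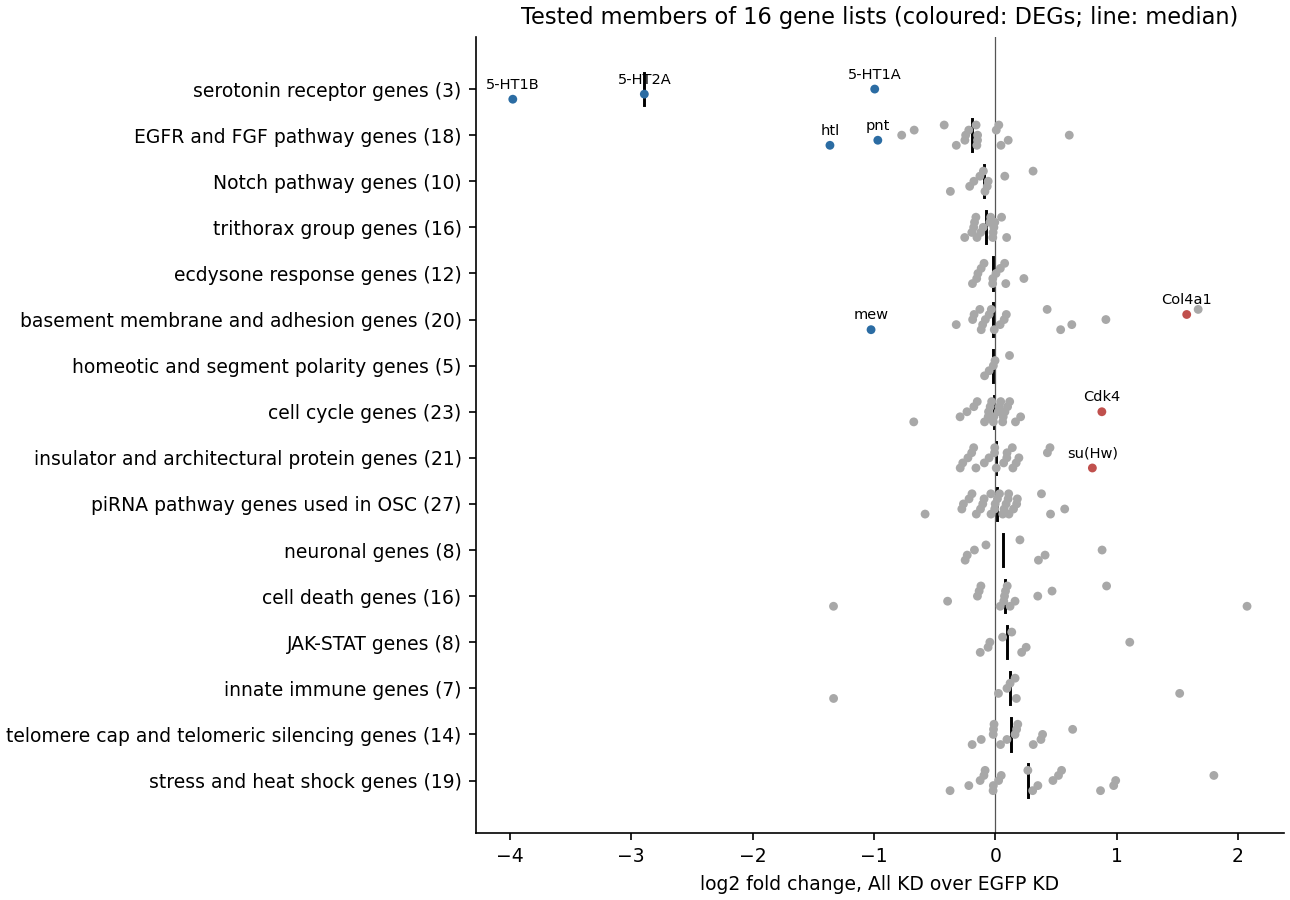
Log2 fold change of All KD over EGFP KD for the tested members of 16 gene lists, with the number tested in brackets, DEGs in colour and a line at the median. The median of the 3 serotonin receptor genes lies at -2.89, and the medians of the other lists lie between -0.19 and 0.27.

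Lowered genes lay beside each other at some loci. Outside the mod(mdg4) locus, 10 of 82 DEGs with a position (12.2%) had a DEG as the next tested gene on the chromosome, against 163 of 8061 tested genes (2.02%). The 10 form 5 pairs, of which 4 moved the same way. CG17224 (FBgn0031489; 2L, 3016441 to 3018308, minus strand) was at 84.8 and 102 CPM in EGFP KD and at 3.91 and 3.40 CPM in All KD, a log2 fold change of -4.67 (adjusted p = 0.00037, SE 0.16), and CG17264 (2L, 3018508 to 3021506, plus strand) was at 25.7 and 33.2 CPM against 6.85 and 5.65 CPM, a log2 fold change of -2.23 (adjusted p = 0.0083, SE 0.18). Both are transcribed away from a gap of 199 bases. Irk1, a potassium channel gene, and CG46310 lie on 3R and share exons on the same strand, so their log2 fold changes of -1.85 (SE 0.28) and -3.65 (SE 0.51) are not separate measurements. Pvr and CG8086 (-1.77, SE 0.26) lie 4281 bases apart on 2L. Mew and comt lie 530 bases apart on X and moved in opposite directions.

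The 199 bases between CG17224 and CG17264 are shown whole because both neighbours fell, in dm6 coordinates on the plus strand, with matches to CGATA in capitals. CGATA is the core bound by the insulator protein BEAF-32, and was searched on both strands.
2L:3018309-3018507: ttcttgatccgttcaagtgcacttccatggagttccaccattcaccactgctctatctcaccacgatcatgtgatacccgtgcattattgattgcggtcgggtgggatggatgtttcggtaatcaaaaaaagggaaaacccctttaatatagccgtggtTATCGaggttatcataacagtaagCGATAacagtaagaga
The gap held 2 matches to CGATA, 0 to GAGAG and 0 to TGCATA, all on either strand, and no exon of another annotated gene. TGCATA is the centre of the sequence that Su(Hw) binds, and GAGAG the core bound by the GAGA factor.

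The same letters were counted in the promoters of the DEGs. In windows from 250 bases before to 50 bases after the outermost annotated start, searched on both strands, GAGAG was found in 37 of 60 lowered genes (61.7%) and 10 of 21 raised genes (47.6%), against 27.9% of 8043 tested genes. CGATA was found in 30.0% of lowered and 28.6% of raised genes against 55.8% of tested genes, and TGCATA in 15.0% and 4.76% against 15.3%. Longer sequences were searched too. TATCGATA, the DREF site, which holds CGATA, was found in 5.0% and 0.0% against 15.2%. GGTCACAC, the M1BP site, was found in 3.33% and 14.3% against 12.9%. The CGATA shares therefore do not stand for BEAF-32 alone. The shares are a description of the annotated windows. The 150 bases before the start of 3 lowered genes are shown in the direction of transcription, with GAGAG or its complement CTCTC in capitals. These genes were chosen for holding GAGAG from those called in every alternative. Other lowered genes called in every alternative, such as CG7194 and CG3457, held no match in their 150 bases.
5-HT2A, 3R:4612720-4612869, plus strand: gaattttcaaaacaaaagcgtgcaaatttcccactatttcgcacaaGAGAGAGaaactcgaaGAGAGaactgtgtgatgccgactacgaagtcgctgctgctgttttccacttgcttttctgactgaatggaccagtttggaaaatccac
dysc, 3L:13903237-13903386, minus strand: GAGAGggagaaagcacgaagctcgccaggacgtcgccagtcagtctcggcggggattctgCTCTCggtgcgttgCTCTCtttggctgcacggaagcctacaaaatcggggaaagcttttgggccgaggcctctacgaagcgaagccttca
AgmNAT, X:5815821-5815970, minus strand: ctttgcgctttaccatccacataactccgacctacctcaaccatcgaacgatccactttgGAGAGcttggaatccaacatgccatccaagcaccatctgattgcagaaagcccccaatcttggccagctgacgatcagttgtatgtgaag
Matches to GAGAG numbered 3 before 5-HT2A, 3 before dysc and 1 before AgmNAT, counting overlapping matches.

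CG9628 and 5-HT2A were low in both knockdowns when the N KD values were set beside those of the All KD. Both comparisons use the same EGFP KD libraries. In N KD against EGFP KD, 2 of 8106 tested genes (0.0247%) were called, CG9628 and 5-HT2A. CG9628 (FBgn0036433; 3L, 14622796 to 14628174), whose exons overlap those of RecQ5 on the opposite strand, was at 15.9 and 12.7 CPM in EGFP KD, at 1.35 and 1.32 CPM in N KD and at 1.35 and 0.476 CPM in All KD. Its log2 fold change was -3.97 in All KD (SE 0.40, adjusted p = 0.012) and -3.41 in N KD (SE 0.22, adjusted p = 0.0048). The difference between All KD and N KD was -0.56 (SE 0.52, adjusted p = 0.74). For 5-HT2A the N KD values were 2.27 and 3.41 CPM, and the difference between All KD and N KD was -0.52 (SE 0.33, adjusted p = 0.63). CG13982 was at 3.30 and 3.80 CPM in EGFP KD, at 0.379 and 0.766 CPM in N KD and at 0.602 and 0.272 CPM in All KD, with a log2 fold change of -3.01 in All KD and -2.67 in N KD, where it was not called (adjusted p = 0.38).

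Some other lowered genes had N KD values near the control. Not all did, and CG10184 had a log2 fold change of -0.85 in N KD, where it was not called. CG17224 was at 84.4 and 95.6 CPM in N KD, and All KD differed from N KD by -4.62 (SE 0.14, adjusted p = 0.00022). CG7194 was at 1417 and 1458 CPM in N KD, with a difference of -4.34 (SE 0.25, adjusted p = 0.0018), and 5-HT1B at 14.7 and 13.0 CPM, with a difference of -3.88 (SE 0.22, adjusted p = 0.0018). For AgmNAT the difference was -5.95 (SE 0.28, adjusted p = 0.0012). All KD against N KD called 93 of 8118 tested genes (1.15%), 68 lower (0.838%) and 25 higher (0.308%) in All KD. Of the 61 genes named by rule, 35 were among them. That count is no separate result, because genes were named for their change in the same All KD libraries.

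**Figure D5:**
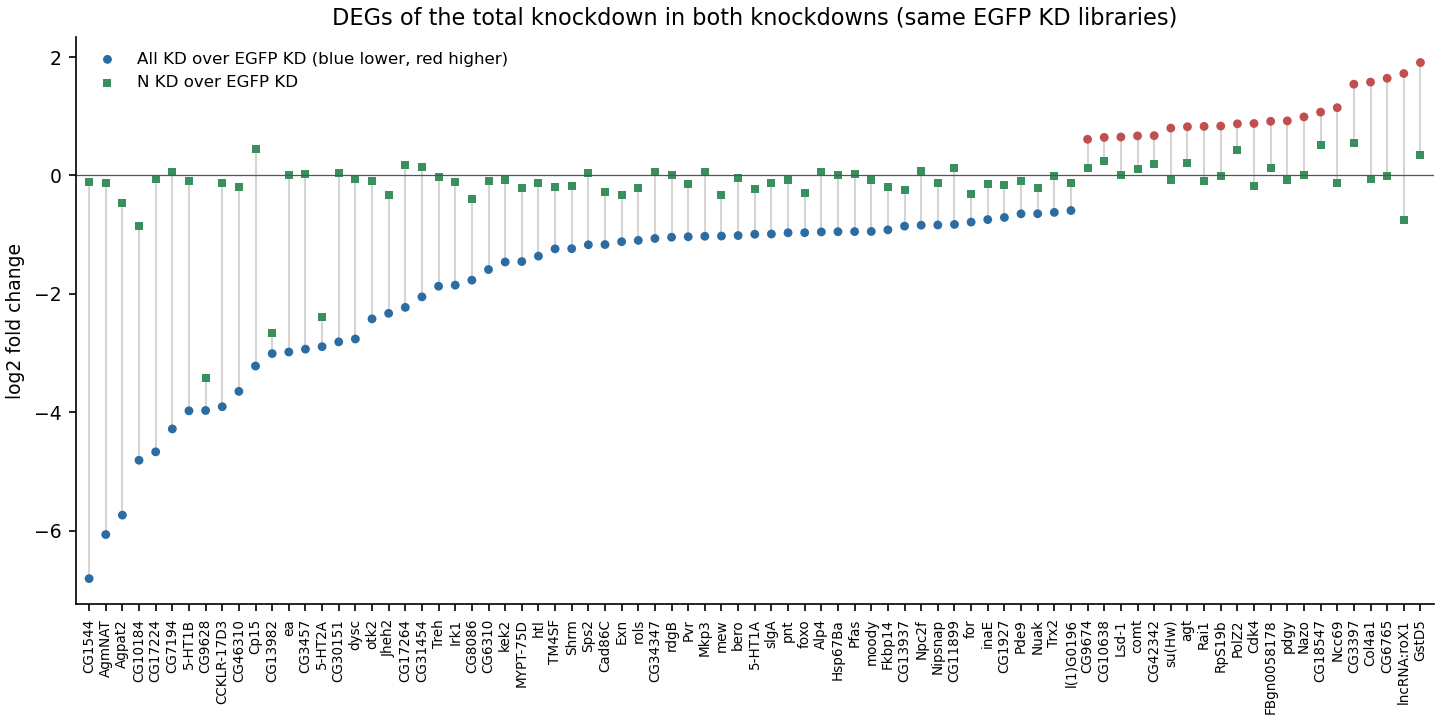
Log2 fold change over EGFP KD in All KD (blue for the 60 lowered, red for the 21 raised DEGs) and in N KD (green squares) for DEGs outside the mod(mdg4) locus that were tested in both, ordered by the All KD value. The N KD squares of CG9628, CG13982 and 5-HT2A lie between -3.41 and -2.39, and that of roX1 lies at -0.75 below a red point at 1.72.

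DEGs were spread over the chromosomes. The share of tested genes called was 0.919% on 2L, 0.607% on 2R, 1.02% on 3L, 1.39% on 3R and 1.07% on X. On the small chromosome 4 it was 0 of 70 genes. In these shares mod(mdg4) and its precursors, which lie on 3R, were left out. The genes within 200000 bases of the end of 2R or 3R, where the telomeric repeats studied in the series lie, numbered 7 tested and 0 DEGs, with log2 fold changes between -0.50 and 0.38. Within 50000 bases of mod(mdg4), the tested genes Hsromega and aus had log2 fold changes of 0.13 (SE 0.09, adjusted p = 0.61) and -0.15 (SE 0.11, adjusted p = 0.60). The pair 5-HT1B and 5-HT1A lies on 2R, 34512 bases apart. Of the 89 DEGs, 27 have exons that overlap another gene on the opposite strand and 13 on the same strand, and 19 had a count that was not whole in at least 1 library.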

How the data were processed

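Poly(A)+ RNA was sequenced from OSCs after RNAi against EGFP or all variants of Mod(mdg4), 2 libraries each. The submitters' processing notes name RSEM, STAR and dm6, with versions and annotation not given in the sources used here. The authors deposited expected counts per gene without normalization, in which RSEM divides a read pair between the genes it maps to, and TPM values that the authors scaled for length and depth. Between 15.6% and 16.2% of nonzero expected counts were not whole. A stranded kit was used and no strand setting of the counting is stated, so where genes overlap on opposite strands their reads cannot be told apart.

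Expected counts were rounded, and genes with CPM above 1 in at least 2 of the 4 libraries were fitted with edgeR 4.0.16 in R 4.3.3 (TMM, quasi-likelihood F test, legacy algorithm, Benjamini-Hochberg adjusted p under 0.05 over all tested genes, no fold threshold). An SE is the log2 fold change divided by the square root of F. CPM printed were normalized over the 6 OSC libraries. A floor of 3 counts corresponded to between 0.162 and 0.226 CPM, covering counting error only, as do the intervals. The 2 libraries of a group differed by more than sampling noise (chi-square per degree of freedom 12.4 in EGFP KD and 19.6 in All KD), so none was a copy. In simulated counts for the 8126 genes with 200 changed, the test recovered 89 of 99 genes changed 2-fold and 94 of 97 changed 4-fold, with 7 false calls. Simulated dispersion followed the trend alone, so recovery may be too high. A sequence batch is not given in the labels.

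Identifiers were matched to the Ensembl annotation of dm6 for 17710 of 17807 genes, and sequence came from the RefSeq genome of the same release. Of 332 list names, 5 were not matched. Genes named by rule were mod(mdg4) and its precursors, in each direction the 12 most changed DEGs without overlap between groups, the 5 with the largest difference in mean CPM in each direction, CG9628 and 5-HT2A, up to 4 DEGs a list and up to 6 pairs of neighbouring DEGs, 61 genes in all. The comparison, the lists and the rule were chosen with earlier results of these data known. The alternatives tried were DESeq2 1.42.0, limma-voom (limma 3.58.1), the newer edgeR algorithm, RLE size factors, filterByExpr, all genes unfiltered, a fit of all 3 OSC groups, a replicate block, and each library left out. Ovary, ChIP-seq and Micro-C samples were not used here.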

Additional observations from a re-analysis of the deposited data

How the results depend on the processing

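The number of calls did not hold across the 12 alternatives. Every DEG kept its direction in all 12, which is no test of direction, because the groups of each DEG did not overlap. The All KD called 89 genes, 24 raised, 65 lowered and 55 changed 2-fold or more. DESeq2 called 230 genes (91, 139 and 98 in the same order), the fit without a filter 188 (66, 122 and 102), and all 3 OSC groups in a single fit 181 (62, 119 and 89). Under the replicate block the number was 166 (59, 107 and 84). Leaving out a library gave between 26 and 307 DEGs, between 5 and 187 raised, between 21 and 243 lowered, and between 26 and 157 changed 2-fold or more. Lowered genes were the majority in all alternatives except the fit without All KD replicate 2 (187 raised, 111 lowered). RLE size factors (88), limma-voom (73), the newer edgeR algorithm (86) and filterByExpr (88) stayed within 1.5 times. The cause of these differences was not tested. The log2 fold change of mod(mdg4) was between -2.51 and -2.44 and was called throughout, with -2.47 under the replicate block. Labels give the groups the same replicate numbers without saying that a number marks a shared culture, and same-numbered EGFP KD and All KD libraries deviated from their group means with a correlation across genes of 0.154, over 2 pairs, so the block is given only here. All 89 DEGs were among the 166 called under the block.

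Of the 45 other DEGs named by rule, 8 lost their call with limma-voom, 3 with the newer edgeR algorithm, 27 without EGFP KD replicate 1 and 30 without EGFP KD replicate 2. The values for named genes in N KD and in All KD against N KD were refitted with RLE size factors and the block, alternatives chosen after seeing the data. Between All KD and N KD, 35 of 61 named genes were called, 35 with RLE size factors and 17 with the replicate block. Between N KD and EGFP KD the counts were 2, 2 and 3. Uncalled precursor genes reversed direction without single libraries. The range over single libraries left out was -0.042 to 0.48 for pre-mod(mdg4)-AB (below 0 without EGFP KD replicate 1), -2.06 to 2.07 for pre-mod(mdg4)-AE (2.07 without EGFP KD replicate 2 and 0.64 without All KD replicate 2), -0.29 to 0.91 for pre-mod(mdg4)-C (below 0 without All KD replicate 1), -0.20 to 0.15 for pre-mod(mdg4)-E (0.15 without EGFP KD replicate 2 and 0.081 without All KD replicate 2), -0.18 to 0.77 for pre-mod(mdg4)-N (below 0 without All KD replicate 2), and -0.20 to 0.34 for pre-mod(mdg4)-X (-0.20 without EGFP KD replicate 1 and -0.076 without All KD replicate 2). With 2 libraries a group, differences in genes of a few CPM were not detectable at this depth unless large.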

Other observations

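The All KD libraries differed from each other in genes that did not pass the test between the groups. E(spl)mgamma-HLH, a target of Notch signalling, was at 101 and 19.7 CPM in All KD and at 52.3 and 45.3 CPM in EGFP KD, and E(spl)m8-HLH was at 114 and 24.4 CPM against 71.4 and 89.5 CPM. Mmp1, a matrix metalloprotease, was at 434 and 105 CPM in All KD and at 213 and 191 CPM in EGFP KD, and upd3, a ligand of the JAK-STAT pathway, was at 33.9 and 12.3 CPM against 12.2 and 9.26 CPM. The virus-induced gene vir-1 was at 42.2 and 9.12 CPM in All KD and at 21.0 and 24.6 CPM in EGFP KD. Except for upd3, whose All KD values both lay above the EGFP KD values, the EGFP KD libraries lay between the All KD libraries in each of these genes, which were picked after their values were seen.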
